A study of Homo sapiens with 6 samples.

Results

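The comparison set 4 libraries made after a knockdown against 2 control libraries, and asked which genes moved the same way whichever gene was targeted. All 6 RNA-seq libraries came from TOV21G, an ovarian clear cell carcinoma line labelled wild type, and fell into 3 groups of 2 by their titles: NC, siGYS1 and sip53. The titles are all that names a condition: NC was taken to mean a control siRNA, and the other titles to mean siRNAs against GYS1 and p53. The labels give no dose, time or siRNA sequence. A gene was described here when all 4 knockdown libraries lay on the same side of both NC libraries, which held for 4864 of 13235 tested genes (36.8%), 2347 above and 2517 below. Of these, 1855 were also called higher and 1874 lower by a test of the mean of both knockdowns against NC, and these 3729 genes (28.2%) are called separated genes below. The table listed 16910 genes in all.

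An siRNA is a short double-stranded RNA whose guide strand is loaded into an Argonaute protein and directs the cleavage of a matching transcript. A control siRNA is loaded in the same way but is meant to match no transcript, so it sets the level from which a knockdown is read. GYS1 is the muscle-type glycogen synthase, which extends glycogen chains from UDP-glucose, and p53 is a transcription factor that acts in the response to DNA damage and other stress. Because both knockdowns were read against the same 2 NC libraries, whatever sets those 2 libraries apart enters both differences, and a change shared by the knockdowns and a change in NC cannot be told apart.

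The libraries held 17425000 to 18097337 reads assigned to genes, with 4.81% to 6.0% from mitochondrially encoded transcripts. Levels below are CPM, the usual read counts scaled to library size, here with trimmed mean of M values (TMM) factors, and they are compared within a gene and not between genes. GYS1 was at 90.2 and 86.7 CPM in NC, 5.59 and 5.52 in siGYS1, and 100 and 105 in sip53. GYS1 thus stood at 6.29% of NC in siGYS1, as its label says, and above NC in both sip53 libraries, so that it was not separated. The label of sip53 was not checked against its target here. The line's labelled origin was read from marker genes: PAX8 (150 FPKM in NC), KRT8 (221) and KRT18 (215) were abundant, whereas NAPSA (0.445) and EPCAM (4.63) were low. The root mean square log2 difference was 0.18 between both NC libraries, 0.24 between both siGYS1 libraries and 0.16 between both sip53 libraries, against 0.33 to 0.45 between siGYS1 and NC and 0.60 to 0.63 between sip53 and NC. It was 0.54 to 0.59 between siGYS1 and sip53, so the siGYS1 libraries lay nearer to NC than to the other knockdown. The labels do not say whether replicates were separate cultures, so the p-values measure only the spread between these libraries, which may be technical.

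The pooled test called 5106 genes (38.6% of tested genes), 2358 higher (17.8%) and 2748 lower (20.8%) at an edgeR adjusted p below 0.05. Requiring separation as well left 1855 higher (14%) and 1874 lower (14.2%). Of the 5106 pooled calls 46.2% were higher, and that share depended on scaling. With upper quartile factors 1922 genes were higher and 3463 lower, a share of 35.7%, and with limma on log2(FPKM + 1) it was 33.5%. It was 49.9% with relative log expression factors, 50.1% with length-corrected offsets and 54.7% with DESeq2 (2223 higher and 1843 lower), so the larger direction was not the same under every scaling. Of the remaining calls, 1377 genes passed the pooled test without separation, and in 579 of these the knockdowns had opposite signs. A further 1135 genes were on one side in all 4 knockdown libraries and did not pass the test. Just inside the threshold lay PIGS and SEC23IP (edgeR adjusted p = 0.0499 and 0.05) and just outside it TENT4B and NSUN2 (0.0502 and 0.0503). Leaving out NC replicate 2 lowered the separated genes to 1153 higher and 1166 lower, and 979 and 852 of the separated genes stayed separated and called in every fit that left out a library.

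The knockdowns did not move these genes equally. Separated higher genes had a median log2 fold change of 0.41 with siGYS1 and 0.62 with sip53, and separated lower genes -0.39 and -0.66. The contrast of siGYS1 with sip53, in which NC takes no part, called 5745 of all tested genes (43.4%) and 1730 of the 3729 separated genes. Among the separated higher genes 903 differed between the knockdowns, 820 of them further from NC with sip53 and 83 with siGYS1. Among the separated lower genes 827 differed, 714 further with sip53 and 113 with siGYS1. The other 952 higher and 1047 lower genes did not pass that test, which does not show equal levels. At least 2-fold changes with both knockdowns were found for 143 higher genes (1.08% of tested genes) and 119 lower genes (0.899%).

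**Figure D1:**
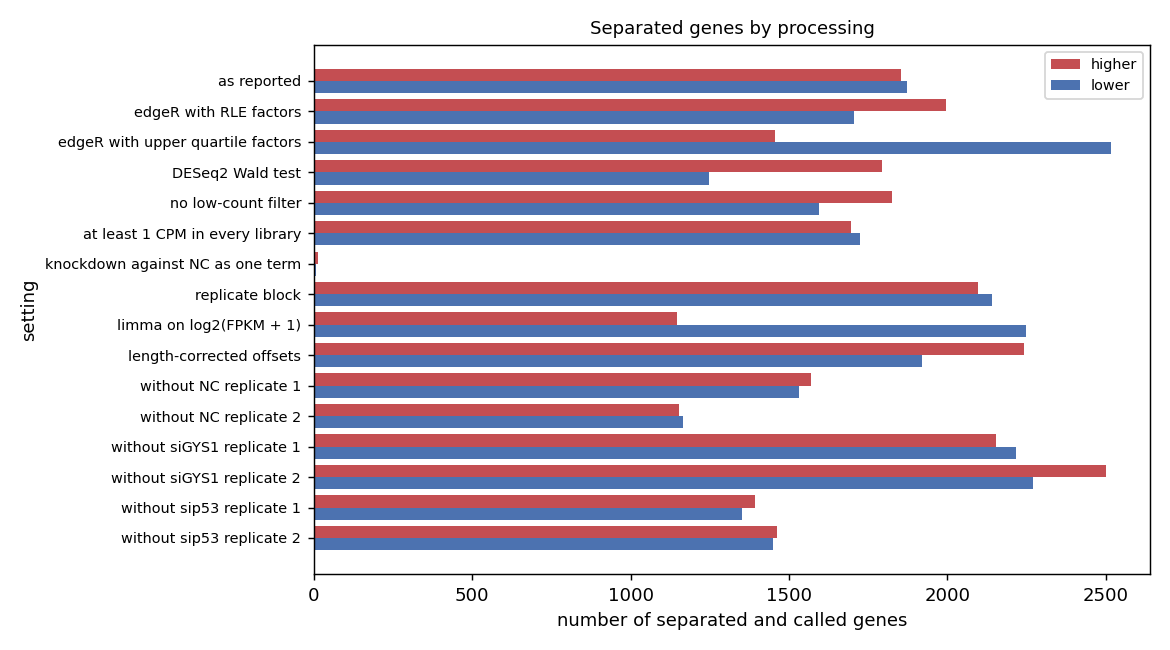
Number of separated and called genes (x axis) under each way of processing the counts (y axis), higher genes in red and lower genes in blue. As reported they are 1855 higher and 1874 lower, the highest are 2501 higher without siGYS1 replicate 2 and 2516 lower with upper quartile factors, and the lowest are 13 and 8 when the difference between the knockdowns is counted as spread.

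The counts above take the spread between libraries of the same group as the error. When the 4 knockdown libraries were instead treated as 1 group, so that the difference between siGYS1 and sip53 counted as spread, edgeR called 21 genes (0.159% of tested genes), 13 higher and 8 lower, with 2741 genes at an unadjusted p below 0.05. All 21 were separated genes. They are the genes whose 4 knockdown values lay closest together relative to their distance from NC, and they were singled out after their values were seen. Of the 21, CCL20 and INSIG1 still differed between the knockdowns.

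The 13 higher genes included a pair of BH3-only genes, whose proteins bind and block BCL2-type survival proteins. HRK was at 2.37 and 2.36 CPM in NC, 10.9 and 10.2 in siGYS1, and 10.7 and 10.2 in sip53. The knockdown levels did not overlap NC and nearly coincided with each other (pooled log2 fold change 2.15, SE 0.14, edgeR adjusted p = 8.78e-06). BMF was at 13.1 and 11.97 CPM in NC, 24.1 and 23.5 in siGYS1, and 25.7 and 25.1 in sip53. BIRC7, an inhibitor of apoptosis proteins family member, was at 1.67 and 1.66 CPM in NC, 5.59 and 8.04 in siGYS1, and 8.59 and 8.11 in sip53. Genes with opposite known roles in cell death thus stood together above NC.

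Lipid and energy genes formed another part of the 13. INSIG1, which holds the SREBP activation complex in the endoplasmic reticulum, was at 102 and 94.8 CPM in NC, 314 and 337 in siGYS1, and 413 and 384 in sip53 (log2 1.87, SE 0.08, edgeR adjusted p = 1.17e-06). Its sip53 level was above its siGYS1 level (siGYS1 minus sip53 -0.29, edgeR adjusted p = 0.0216). ABCA12, a lipid transporter, was at 5.71 and 4.83 CPM in NC, 23.3 and 17.6 in siGYS1, and 17.7 and 18.2 in sip53. PIP4K2A, a phosphoinositide kinase, was at 80.7 and 78.6 CPM in NC, 201 and 184 in siGYS1, and 221 and 232 in sip53. PRKAG2, a regulatory subunit of AMP-activated protein kinase, was at 106 and 103 CPM in NC, 204 and 213 in siGYS1, and 251 and 231 in sip53. In all 4 genes the lowest knockdown library was above the highest NC library by more than the gap between both NC libraries.

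The rest of the 13 were regulators of growth, signalling and the cell surroundings. NEDD4, a ubiquitin ligase, was at 148 and 122 CPM in NC, 402 and 303 in siGYS1, and 401 and 362 in sip53. LATS2, a kinase of the Hippo pathway, was at 31.0 and 29.2 CPM in NC, 68.8 and 57.6 in siGYS1, and 71.5 and 71.4 in sip53. HMGA2, a chromatin-bound protein that let-7 microRNAs are known to repress, was at 431 and 433 CPM in NC, 841 and 727 in siGYS1, and 799 and 810 in sip53. These 3 genes were about as high in sip53 as in siGYS1, and none passed the test of that difference (edgeR adjusted p = 0.53, 0.193 and 0.769). The fit that chose them favours a small difference, so this does not show equal levels. TIMP2, an inhibitor of matrix metalloproteinases, was at 267 and 240 CPM in NC, 498 and 465 in siGYS1, and 495 and 500 in sip53. EVC, a protein of the primary cilium, was at 14.9 and 14.1 CPM in NC, 32.4 and 26.9 in siGYS1, and 32.3 and 33.4 in sip53. CCL20, the chemokine that binds CCR6, was at 102 and 103 CPM in NC, 255 and 255 in siGYS1, and 334 and 325 in sip53. CCL20 differed between the knockdowns by less than it differed from NC (siGYS1 minus sip53 -0.37, pooled log2 1.498).

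The 8 lower genes were led by AHRR, the repressor of the aryl hydrocarbon receptor. It had 40 and 38 reads in NC, 2 and 1 in siGYS1, and 0 and 2 in sip53, too few in the knockdowns for a fold change to be read. SLC12A1, a sodium, potassium and chloride transporter, had 29 and 38 reads in NC, 2 and 1 in siGYS1, and 4 and 2 in sip53. GJA5, a gap junction protein, was at 5.65 and 5.21 CPM in NC, 0.69 and 0.84 in siGYS1, and 0.52 and 1.03 in sip53. AHRR and SLC12A1 were expressed at a low level in NC and fell close to the limit of detection at this depth in all 4 knockdown libraries. GJA5 fell from 105 and 97 reads in NC to 12 and 15 in siGYS1 and 9 and 18 in sip53. EGR1, an immediate early transcription factor, was at 30.7 and 32.5 CPM in NC, 9.56 and 7.48 in siGYS1, and 6.51 and 7.03 in sip53 (log2 -2.06, SE 0.11, edgeR adjusted p = 2.7e-06). CA14, a carbonic anhydrase, was at 9.90 and 9.82 CPM in NC, 2.82 and 3.12 in siGYS1, and 2.88 and 2.86 in sip53, or 30.2% and 29.1% of NC. EPHX2, the soluble epoxide hydrolase, was at 16.4 and 16.3 CPM in NC, 7.09 and 7.25 in siGYS1, and 7.72 and 7.48 in sip53. For CA14 and EPHX2 the difference between the knockdowns did not pass the test (edgeR adjusted p = 0.849 and 0.628). That outcome too is favoured by how they were chosen. TXNDC5, a protein disulfide isomerase of the endoplasmic reticulum, was at 350 and 358 CPM in NC, 187 and 197 in siGYS1, and 178 and 187 in sip53. WBP1, a WW domain binding protein, was at 45.7 and 44.2 CPM in NC, 22.5 and 24.7 in siGYS1, and 24.6 and 25.2 in sip53.

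**Figure D2:**
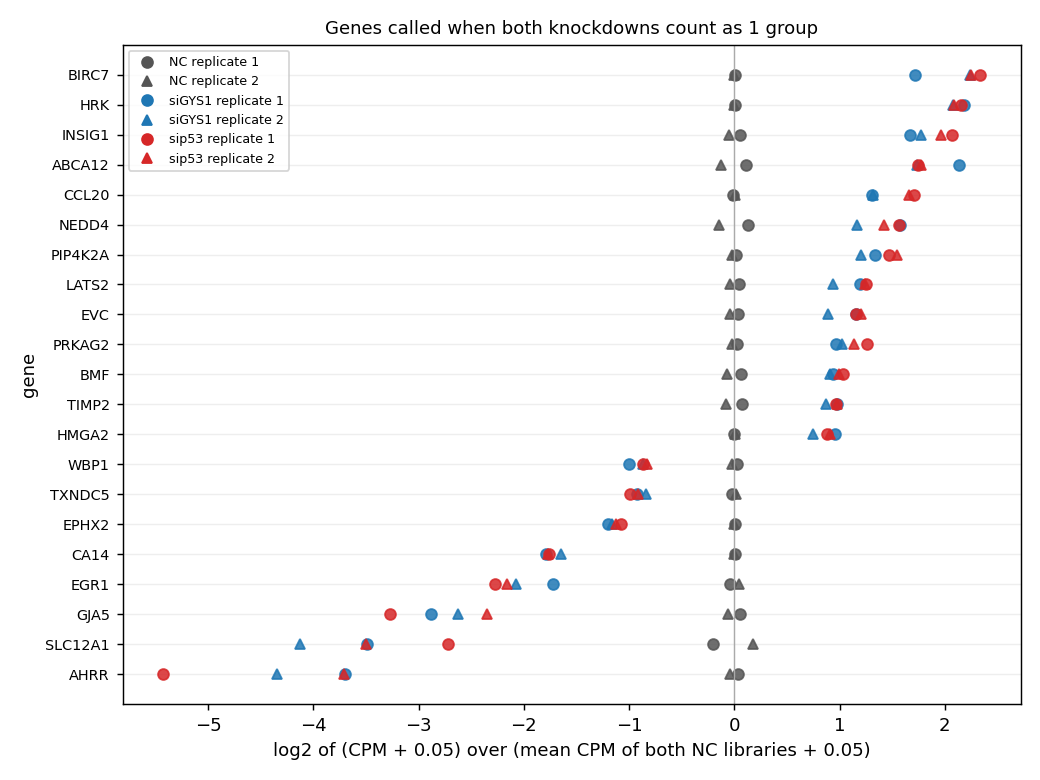
Log2 ratio of each library to the mean of both NC libraries (x axis, CPM with 0.05 added) for the 21 genes called when both knockdowns count as 1 group (y axis). Points are single libraries, coloured by group. Blue and red points lie together, as that choice favours, and away from the grey NC points. BIRC7 and HRK are at the top and SLC12A1 and AHRR at the bottom.

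Ranked instead by the smaller of both knockdowns' changes, 14 genes led each direction, counting separated protein-coding genes whose FPKM averaged 1 or more. The higher genes included secreted and surface immune proteins: CSF2, CD69, IL6R and CCL5. CSF2, which encodes the cytokine GM-CSF, had 3 and 2 reads in NC, 17 and 29 in siGYS1, and 289 and 283 in sip53. CD69, a lymphocyte activation antigen, was at 0.65 and 0.70 CPM in NC, 4.84 and 3.85 in siGYS1, and 15.0 and 12.7 in sip53. IL6R, the interleukin-6 receptor, was at 3.71 and 3.11 CPM in NC, 16.8 and 17.2 in siGYS1, and 35.1 and 31.2 in sip53. In these 3 genes siGYS1 lay between NC and sip53 with no overlap. CCL5, a chemokine, was at 0.48 and 0.38 CPM in NC, 2.30 and 1.45 in siGYS1, and 2.48 and 2.00 in sip53, and its knockdown libraries overlapped one another.

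Others among the 14 were ANKRD1, a muscle ankyrin repeat protein that YAP is known to induce (7 and 5 reads in NC, 37 and 27 in siGYS1, 126 and 98 in sip53), and TM4SF19, a tetraspanin-like membrane protein. TM4SF19 was at 1.83 and 2.42 CPM in NC, 8.47 and 9.71 in siGYS1, and 54.2 and 47.2 in sip53. HSPB8, a small heat shock protein, was at 0.70 and 0.38 CPM in NC, 2.02 and 2.46 in siGYS1, and 10.5 and 7.88 in sip53. TMEM265 had 0 and 7 reads in NC, so its NC libraries did not agree on a level, and 28 to 161 in the knockdowns. CA9, OASL, BIRC7 and HRK complete the named higher genes and are described with their groups, and ENSG00000258864 and ENSG00000260342 have no symbol in the table and 0 to 14 reads in NC. Of the 14, 9 differed between the knockdowns, and 13 were further from NC with sip53.

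The 14 lower genes were headed by AGR2, EGR1 and MAJIN in this ranking. RGS2, a regulator that shortens G protein signalling, was at 50.3 and 58.7 CPM in NC, 19.0 and 17.6 in siGYS1, and 7.61 and 7.14 in sip53 (log2 -2.23, SE 0.09, edgeR adjusted p = 9.11e-07). RAB7B, a small GTPase of endosomal transport, was at 7.81 and 6.92 CPM in NC, 2.88 and 2.23 in siGYS1, and 1.38 and 1.14 in sip53. Both genes stepped down from NC to siGYS1 to sip53 without overlap. AGR2, a secretory pathway disulfide isomerase of mucus-producing epithelia, was at 3.23 and 2.52 CPM in NC, 0.81 and 0.61 in siGYS1, and 0.75 and 0.57 in sip53. TMC4, an ion channel family member, was at 8.99 and 9.88 CPM in NC, 2.88 and 4.30 in siGYS1, and 2.36 and 3.48 in sip53. CFAP206, a protein of motile cilia, was at 5.54 and 5.53 CPM in NC, 2.48 and 1.56 in siGYS1, and 2.13 and 1.77 in sip53. The knockdown libraries overlapped each other in these 3 genes. FAM149A was at 14.4 and 15.5 CPM in NC, 5.36 and 4.41 in siGYS1, and 1.84 and 1.49 in sip53. ENHO, CCDC74B, FBXO15, MAJIN and ENSG00000283782 ranged in pooled log2 fold change from -1.36 to -2.34, and ENSG00000283782 had 201 and 445 reads in its NC libraries and 11 to 123 in the knockdowns. SLC17A8 is given with the genes that differ most. Of the 14, 4 differed between the knockdowns, and 13 were further from NC with sip53.

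**Figure D3:**
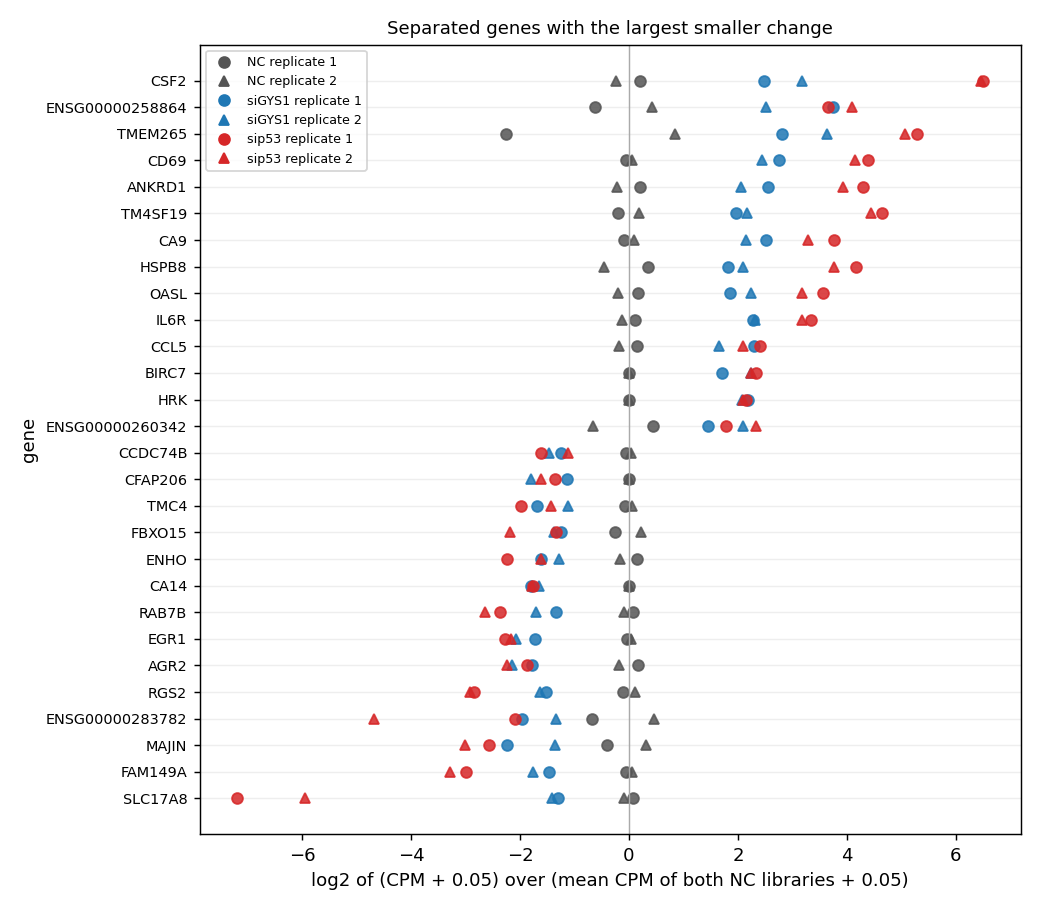
Log2 ratio of each library to the mean of both NC libraries (x axis, CPM with 0.05 added) for the 28 genes with the largest smaller change (y axis). In most higher genes the blue siGYS1 points lie between the grey NC and the red sip53 points, and HRK and CA14 are examples in which blue and red coincide.

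Gene lists were read by their counts of separated members, against 14% higher and 14.2% lower of all tested genes and an all-gene median of -0.03. Under the fit that treats the knockdowns as 1 group, the only list members still called were BMF, HRK, CCL20, EGR1 and INSIG1. Hypoxia-induced genes, which hypoxia-inducible factor switches on when oxygen is low, had 13 of 18 members higher and 0 lower, with medians of 0.62 for siGYS1 and 1.21 for sip53. PLIN2, a lipid droplet coat protein, was at 127 and 137 CPM in NC, 371 and 412 in siGYS1, and 1276 and 1122 in sip53. CA9, a surface carbonic anhydrase, had 6 and 7 reads in NC, 39 and 31 in siGYS1, and 93 and 67 in sip53. ANKRD37 was at 0.65 and 0.97 CPM in NC, 2.48 and 1.51 in siGYS1, and 3.92 and 4.17 in sip53. All 13 of these members differed between the knockdowns.

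Glucose uptake and glycolysis had 12 of 22 members higher and 0 lower, with medians of 0.20 and 0.74, and 11 of the 12 differed between the knockdowns. The glucose transporter SLC2A1 was at 124 and 128 CPM in NC, 242 and 251 in siGYS1, and 701 and 646 in sip53. SLC2A3, a second glucose transporter, was at 10.3 and 8.80 CPM in NC, 32.7 and 26.3 in siGYS1, and 72.6 and 74.4 in sip53. HK2, the hexokinase that traps glucose as its phosphate, was at 40.4 and 34.9 CPM in NC, 69.1 and 61.7 in siGYS1, and 147 and 133 in sip53. Each rose with siGYS1 and lay higher again with sip53. In glycogen metabolism without GYS1, 4 of 23 members were higher and 1 was lower. PPP1R3B, a subunit that targets protein phosphatase to glycogen, was at 55.0 and 51.0 CPM in NC, 96.9 and 85.5 in siGYS1, and 161 and 139 in sip53. GBE1, the branching enzyme, was at 62.4 and 60.5 CPM in NC, 88.5 and 75.7 in siGYS1, and 93.7 and 84.4 in sip53, and PHKA2, a phosphorylase kinase subunit, fell (log2 -0.66, SE 0.08).

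Inflammatory genes were read from 3 lists. Cytokines and chemokines had 12 of 22 members higher, CSF2, CXCL8, IL6, LIF and CCL20 among them, and 1 lower, CXCL3. The NF-kB feedback list had 7 of 17 higher and 0 lower, a count that was 4 without either NC library or either sip53 library. Its members included TNFAIP3, which ends NF-kB signalling by ubiquitin editing, at 42.1 and 37.5 CPM in NC, 67.2 and 60.9 in siGYS1, and 142 and 133 in sip53. SOD2, the mitochondrial superoxide dismutase, was at 739 and 674 CPM in NC, 1496 and 1395 in siGYS1, and 2778 and 2321 in sip53. BIRC3 lay in another order, at 77.7 and 67.4 CPM in NC, 142 and 111 in siGYS1, and 110 and 106 in sip53. Interferon-stimulated genes, which cells also switch on when they sense foreign RNA, had 15 of 29 members higher and 2 lower, BST2 and TRIM22. MX1, an antiviral GTPase, was at 3.01 and 2.68 CPM in NC, 7.37 and 7.09 in siGYS1, and 24.7 and 26.9 in sip53. OASL had 8 and 6 reads in NC, 26 and 35 in siGYS1, and 87 and 67 in sip53, and IFI44 had 1 and 1, 6 and 6, and 20 and 17. Of 11 leukocyte markers 8 were in the table and 3 were tested, CD68 and ITGAM higher and CORO1A lower. ITGAM lost its call without either NC library or either sip53 library and under DESeq2, limma and upper quartile factors, and CD68 lost its call without NC replicate 1. The summed level of the leukocyte markers was 14.8 to 15.7 FPKM in NC, 11.5 to 12.3 in siGYS1 and 13.5 to 14.7 in sip53.

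RNA interference machinery, which handles siRNA and microRNA, had 5 of 13 members higher and 1 lower, and the 5 fell to 2 without NC replicate 2. TNRC6A, the Argonaute partner that silences bound transcripts, was at 43.5 and 34.7 CPM in NC, 91.3 and 68.9 in siGYS1, and 56.8 and 60.7 in sip53. AGO2 was at 82.9 and 70.3 CPM in NC, 135 and 91.0 in siGYS1, and 127 and 132 in sip53, and AGO4 rose less (log2 0.46, SE 0.12). Without NC replicate 2 the edgeR adjusted p was 0.0611 for AGO2 and 0.12 for AGO4. In both Argonaute genes siGYS1 replicate 2 was the lowest knockdown library.

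Stress and clearance genes also stood above NC. NRF2 and redox genes had 10 of 21 members higher and 0 lower. HMOX1, which degrades haem, was at 33.2 and 35.3 CPM in NC, 84.2 and 94.5 in siGYS1, and 423 and 343 in sip53. TXNRD1, thioredoxin reductase, was at 156 and 146 CPM in NC, 386 and 341 in siGYS1, and 603 and 527 in sip53. Autophagy and lysosome genes had 13 of 23 members higher and 2 lower, ATG7 and TFEB. The 2 became 0 without NC replicate 2 or sip53 replicate 1, and 1 without NC replicate 1, siGYS1 replicate 1 or sip53 replicate 2. The autophagy receptor SQSTM1 was at 436 and 446 CPM in NC, 842 and 958 in siGYS1, and 1380 and 1334 in sip53. NPC1, which exports cholesterol from lysosomes, was at 157 and 144 CPM in NC, 287 and 257 in siGYS1, and 370 and 343 in sip53. CTSD, a lysosomal protease, was at 375 and 401 CPM in NC, 533 and 627 in siGYS1, and 1226 and 1201 in sip53. The same order of NC, siGYS1 and sip53 without overlap held for these 5 genes.

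The integrated stress response and serine pathway had 9 of 20 members higher, ATF3, PPP1R15A, TRIB3 and the cystine transporter SLC7A11 among them. Its 2 lower members were PHGDH and PSAT1, both enzymes of serine synthesis. PHGDH was at 43.2 and 46.3 CPM in NC, 26.2 and 30.4 in siGYS1, and 18.6 and 17.3 in sip53, and SLC7A11 was at 8.24 and 6.60, 13.1 and 10.1, and 28.6 and 24.1. Endoplasmic reticulum chaperones had 2 of 18 higher and 5 lower, among them PDIA4, CRELD2 and XBP1, and the 5 became 1 without NC replicate 2 and 2 without sip53 replicate 1. XBP1, a transcription factor of the unfolded protein response, was at 127 and 133 CPM in NC, 96.6 and 100 in siGYS1, and 100 and 99.7 in sip53. Of 18 cytosolic heat shock genes 1 was higher, BAG3 (log2 0.24, SE 0.08), whose call was lost without either NC library or either sip53 library, and 1 was lower. HSP90AA1, the lower member, was at 1350 and 1431 CPM in NC, 492 and 496 in siGYS1, and 876 and 873 in sip53. HSP90AA1 was thus further from NC with siGYS1 (siGYS1 minus sip53 -0.82, edgeR adjusted p = 3.56e-05).

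Of 37 tested p53 target genes 10 were separated higher and 4 lower, with medians of 0.30 for siGYS1 and -0.15 for sip53. CCNG1, cyclin G1, was at 163 and 163 CPM in NC, 274 and 274 in siGYS1, and 257 and 246 in sip53. TP53I11 fell to 68.8% of NC with siGYS1 and 62.2% with sip53. CCNG1 and TP53I11 did not pass the test of a difference between the knockdowns (edgeR adjusted p = 0.233 and 0.292). BCL2 family genes had 5 of 16 members higher and 0 lower. Beside HRK and BMF, described above, PMAIP1, another BH3-only gene, was at 18.03 and 17.8 CPM in NC, 28.9 and 24.7 in siGYS1, and 38.1 and 37.4 in sip53.

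**Figure D4:**
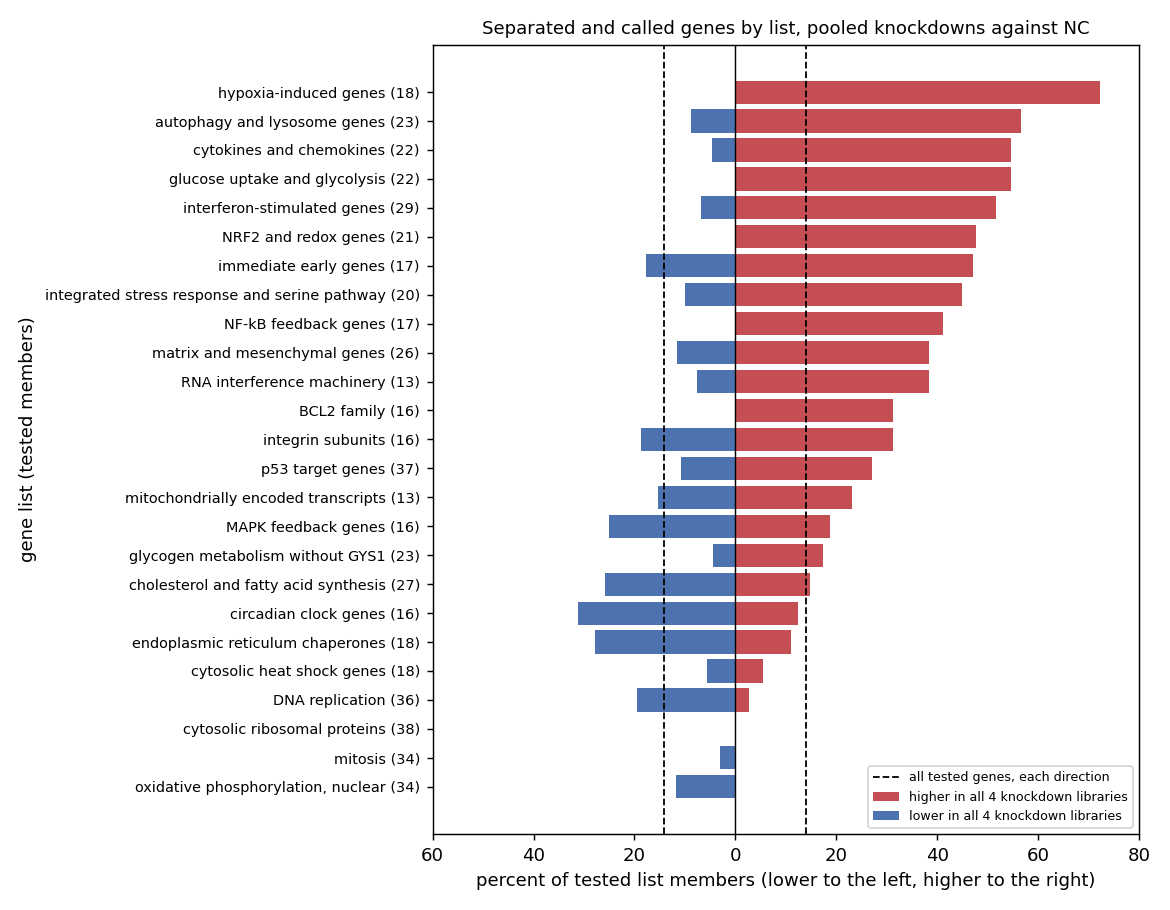
Percent of each list's tested members (number in brackets on the y axis) that were separated and called, higher to the right and lower to the left. Dashed lines mark all tested genes, 14% higher and 14.2% lower. Hypoxia-induced genes, with 13 of 18 members higher, stand at the top, and oxidative phosphorylation, mitosis and ribosomal protein genes have none higher.

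Among growth and housekeeping genes, mitosis and ribosomal protein genes gave few separated members. The pooled test alone called 23 of 36 DNA replication genes lower and 2 higher, beside 20.8% and 17.8% of all tested genes. Of the 36, 7 were separated lower and 1 higher, and the medians were 0.04 with siGYS1 and -0.65 with sip53. The 7 became 11 without NC replicate 1 and 12 without siGYS1 replicate 2. MCM6, a helicase subunit, was at 119 and 122 CPM in NC, 99.9 and 106 in siGYS1, and 40.7 and 45.8 in sip53. RRM2, a ribonucleotide reductase subunit, was at 277 and 292 CPM in NC, 250 and 247 in siGYS1, and 119 and 142 in sip53. With siGYS1 alone neither gene passed the test against NC (edgeR adjusted p = 0.106 for MCM6 and 0.193 for RRM2). The pooled test alone called 13 of 34 mitosis genes lower and 1 higher. Of the 34, 1 was separated, CDC20, which fell (log2 -0.59, SE 0.08), and the medians had opposite signs (0.17 and -0.56). The lower count was 2 without siGYS1 replicate 1 and 4 without siGYS1 replicate 2, and 1 gene was higher without NC replicate 1 or sip53 replicate 2. None of 38 cytosolic ribosomal protein genes was separated, although RPL6 passed the pooled test (log2 -0.61, SE 0.09), and leaving out siGYS1 replicate 1 gave 3 higher, and NC replicate 1 or siGYS1 replicate 2 gave 3 lower.

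Nuclear genes of oxidative phosphorylation had 4 of 34 members lower and 0 higher, a count of 1 without NC replicate 2, 2 without either sip53 library and 7 without siGYS1 replicate 2. SDHA, a succinate dehydrogenase subunit, was at 289 and 311 CPM in NC, 222 and 242 in siGYS1, and 185 and 203 in sip53. Of 13 mitochondrially encoded transcripts 3 were higher and 2 lower, and the 3 became 0 without NC replicate 1 or sip53 replicate 2, 1 without sip53 replicate 1 and 5 without siGYS1 replicate 2. The 2 became 1 without NC replicate 2. MT-ND1 lay above both NC libraries (2932 and 3475 CPM) at 3734 to 4091 CPM, and MT-CO3 lay below them (7928 and 8867 CPM) at 5411 to 7917 CPM. These 2 transcripts of the same genome therefore lay on opposite sides of NC. With siGYS1 alone neither passed the test against NC (edgeR adjusted p = 0.0701 for MT-ND1 and 0.192 for MT-CO3). Both lost their pooled call under limma on log2(FPKM + 1), and MT-ND1 also with upper quartile factors.

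Immediate early genes, the first transcripts made after a stimulus, went both ways, with 8 of 17 higher and 3 lower. KLF6 was at 226 and 208 CPM in NC, 531 and 447 in siGYS1, and 634 and 574 in sip53, and ATF3 was at 2.85 and 2.68, 6.28 and 5.58, and 9.91 and 7.03. EGR1, FOS and IER2 were the lower members, and their count was 5 without siGYS1 replicate 2. MAPK feedback genes, which dampen growth factor signalling, had 3 of 16 higher and 4 lower, and the 3 became 5 without siGYS1 replicate 2. The phosphatase DUSP5 rose (101 and 107 CPM in NC, 184 and 203 in siGYS1, 447 and 380 in sip53), while DUSP6 fell (68.6 and 64.0, 48.4 and 47.9, 48.9 and 48.8). SPRY1, an inhibitor of receptor tyrosine kinase signalling, was at 79.4 and 76.4 CPM in NC, 45.3 and 41.0 in siGYS1, and 23.0 and 24.3 in sip53.

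Of 16 circadian clock genes 5 were lower and 2 higher, and the 2 became 0 without NC replicate 2, 1 without siGYS1 replicate 1 or sip53 replicate 1, and 4 without siGYS1 replicate 2. The lower members included HLF and TEF, related transcription factors of clock output. HLF was at 5.81 and 5.69 CPM in NC, 2.54 and 2.57 in siGYS1, and 3.05 and 2.46 in sip53, and TEF was at 13.2 and 12.6, 9.97 and 9.99, and 5.88 and 5.88. Cholesterol and fatty acid synthesis had 7 of 27 lower and 4 higher, and the 7 became 4 without NC replicate 2. TM7SF2, a sterol reductase, was at 33.8 and 37.5 CPM in NC, 17.2 and 19.5 in siGYS1, and 21.8 and 19.8 in sip53, whereas INSIG1, described above, was higher.

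Matrix and mesenchymal genes had 10 of 26 members higher and 3 lower. THBS1, a matrix glycoprotein, fell from 501 and 475 CPM in NC to 265 and 227 in siGYS1 and 48.5 and 49.9 in sip53. ZEB2, a repressor of epithelial genes, was at 0.65 and 1.07 CPM in NC, 2.07 and 1.56 in siGYS1, and 5.94 and 6.23 in sip53. Of 16 integrin subunits 5 were higher and 3 lower. ITGA5, the fibronectin receptor subunit, was at 34.7 and 32.0 CPM in NC, 55.6 and 59.3 in siGYS1, and 241 and 237 in sip53, and ITGB4, which binds laminin, was at 12.3 and 12.4, 7.26 and 8.04, and 2.07 and 1.60.

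Of 11 epithelial markers 5 were lower and 2 higher. The 5 became 3 without NC replicate 2, and the 2 became 1 without either NC library or either sip53 library. KRT8 was at 311 and 327 CPM in NC, 207 and 248 in siGYS1, and 246 and 236 in sip53, while CLDN4, a tight junction protein, was at 5.06 and 5.10, 6.11 and 7.09, and 24.0 and 21.2. The summed level of the epithelial markers was 487 to 519 FPKM in NC, 318 to 375 in siGYS1 and 393 to 411 in sip53. Of 12 tested clear cell carcinoma markers 3 were higher and 4 lower, GPC3, SPP1 and AMACR among the lower, and GPC3 was at 22.1 and 25.01 CPM in NC, 17.7 and 18.5 in siGYS1, and 5.36 and 6.34 in sip53. Fewer cells of a type and less RNA per cell cannot be told apart in bulk libraries. Of 4 tested fibroblast markers MFAP5 was higher and PDGFRA lower, and their list summed to 32.4 to 41.2 FPKM in NC, 28.1 to 32.3 in siGYS1 and 19.8 to 24.1 in sip53, most of it from ACTA2 (31.6 and 33.05 FPKM in NC). Of 3 tested mesothelial markers MSLN and WT1 were lower, with sums of 14.2 to 16.02 FPKM in NC, 9.63 to 10.8 in siGYS1 and 11.4 to 13.4 in sip53. WT1 was lower in CPM but not in FPKM, where it was at 0.42 and 0.48 in NC, 0.56 and 0.65 in siGYS1, and 0.19 and 0.09 in sip53. None of 3 tested endothelial markers was separated, and their list summed to 0.71 to 0.88 FPKM in NC, 0.63 to 0.64 in siGYS1 and 1.32 to 1.93 in sip53. Leaving out either NC library ended the calls of MFAP5, PDGFRA, MSLN and WT1. Their part in the changes of the other lists was not tested.

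A sequence feature that took no part in choosing the genes was the microRNA site content of the 3' UTR. A microRNA pairs with its target mainly through its seed, bases 2 to 8, and a match to the seed in a 3' UTR marks a possible target. Over 43 microRNA families with a mature sequence in RefSeq (GRCh38.p14), genes with a site for the miR-30 family had the highest median pooled log2 fold change. The family members that RefSeq gives here share their seed, shown in capitals:
miR-30a-5p: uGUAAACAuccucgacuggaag
miR-30c-5p: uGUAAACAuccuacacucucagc
miR-30e-5p: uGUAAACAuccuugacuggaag
The matching site in DNA letters is TGTTTAC. It was searched on the transcribed strand, in the longest annotated 3' UTR of each gene in GENCODE 29.

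Of 13008 tested genes with a 3' UTR, 2351 held the site. Of these, 21.5% were separated higher and 8.12% lower, beside 14.1% and 14.3% of all genes with a 3' UTR, and the medians were 0.09 and -0.03. Other families lay close. All 43 had a median above that of all genes, miR-21-5p sites were next (0.07), and genes with a miR-25-3p or miR-19a-3p site were separated higher in 22.5% and 21.5%. Of the 13 higher genes called with both knockdowns as 1 group, 5 held it, and of the 8 lower genes 1 did. Sites of these genes are shown with the seed match in capitals, 5′ to 3′ on the transcribed strand, because these genes keep their call when the knockdowns count as 1 group. All lie in 3' UTR exons on GRCh38.
NEDD4 at chr15:55829259-55829288, minus strand: cacagaaaaacTGTTTACttcttcactttc
NEDD4 at chr15:55828763-55828792, minus strand: ttttaaaatacTGTTTACtatgaagacaat
PIP4K2A at chr10:22537067-22537096, minus strand: gcaaacctcctTGTTTACatcttcaggcca
PIP4K2A at chr10:22536087-22536116, minus strand: ctcagttttacTGTTTACattattaggaaa
INSIG1 at chr7:155308840-155308869, plus strand: ctgcagtggcgTGTTTACatggtcacacgt
HMGA2 at chr12:65956838-65956867, plus strand: taaaaaccaatTGTTTACtcaatatataat
ABCA12 at chr2:214932093-214932122, minus strand: agtgggcacaaTGTTTACaatgtatgtgta
TXNDC5, which was lower, at chr6:7881543-7881572, minus strand: tacaatttgttTGTTTACactatgatactt
NEDD4 held 4 sites, of which 2 are shown, and PIP4K2A held 2. TNRC6A, described with the RNA interference machinery, also held 4. A site is a match of letters and not evidence of binding.

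The site is more frequent in long 3' UTRs, and 3' UTR length moved with the result on its own. Genes were ranked by 3' UTR length and cut into 4 bins of near equal size. From the shortest to the longest bin the median pooled log2 fold change of all genes was -0.12, -0.05, 0.00 and 0.06, and the share separated higher was 6.45%, 12.4%, 17.7% and 19.96%. Within these bins, genes with the site had medians of -0.06, 0.03, 0.10 and 0.10. Genes without it had -0.12, -0.07, -0.01 and 0.04, so the difference had the same sign in each bin. In the pooled medians that sign was not particular to miR-30, since genes with a let-7 site also lay above genes without it in each bin. Their pooled medians were -0.1211, -0.0102, 0.0392 and 0.0793, beside -0.1235, -0.0581, -0.0005 and 0.0565. For single knockdowns the let-7 sign reversed with siGYS1 in bin 2 (-0.0576 against -0.0401). It also reversed with sip53 in bin 1 (-0.1558 against -0.1172) and bin 3 (0.01 against 0.0174). The miR-30 sign held in each bin with each knockdown. Genes with a miR-30 site also kept longer 3' UTRs within a bin, with medians of 4652 against 3799 bases in the longest bin. Libraries also differed in their relation to transcript length. Across 11172 genes the rank correlation of a library's deviation with exon length was 0.41 for siGYS1 replicate 1 and -0.29 for NC replicate 2, and between -0.08 and 0.04 for the other 4, given as a description. The median of genes with the site exceeded that of all genes by 0.12 as reported. After a correction for length in every library the excess was 0.08. It was 0.08 without siGYS1 replicate 1 or NC replicate 2 in turn, and 0.15 to 0.16 without siGYS1 replicate 2 or NC replicate 1. With the length correction, the bin medians were -0.002, 0.07, 0.10 and 0.07 with the site and -0.07, -0.03, 0.005 and 0.006 without it. The longest bin of genes with the site then no longer stood highest.

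**Figure D5:**
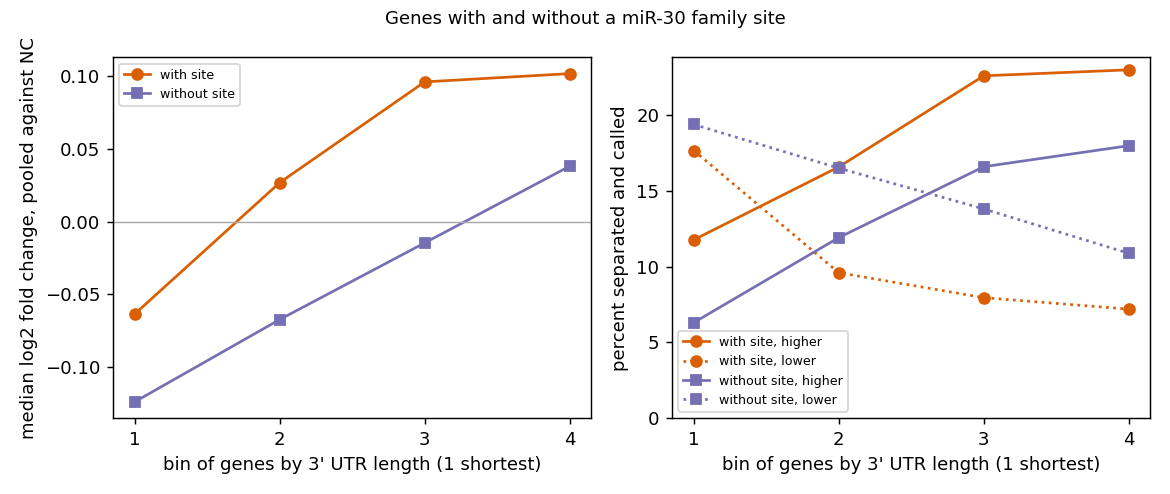
Genes with (orange) and without (purple) a miR-30 family site, by bin of 3' UTR length (x axis, bins 1 to 4 from short to long). The left panel gives the median pooled log2 fold change and the right panel the percent separated higher (solid) and lower (dotted). Both lines of the left panel, drawn without a correction for length, rise with length, and the orange line lies above the purple line in each bin.

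Promoters, taken as the 250 bases before to 50 after a gene's start in RefSeq (GRCh38.p14), were matched for 80.8% of separated higher genes and 81.3% of separated lower genes. Of 10 motifs searched on both strands, the AP-1 letters TGANTCA had the highest ratio of separated higher genes to tested genes. They stood in 6.07% of 1499 higher and 3.68% of 1523 lower genes, beside 4.56% of all tested genes and 7.76% of all 27305 promoters in the table. AP-1 is the dimer of FOS and JUN family proteins, whose genes are among the immediate early genes above. The E2F letters TTTCCCGC stood in 1.33% of higher and 2.95% of lower genes, beside 2.60% of tested genes. The hypoxia response core ACGTG was in 27.1% and 23.2%, beside 26.5%. Matches before the RefSeq start site are shown for 4 of the named higher genes, with the motif in capitals, read 5′ to 3′ along the gene.
CA9 at chr9:35673840-35673869, plus strand: agggcgctctgTGAGTCAgcctgctcccct
TM4SF19 at chr3:196338584-196338613, minus strand: ggtgcatccagTGACTCAtcaggacagcgg
ANKRD1 at chr10:90921264-90921293, minus strand: acatttcttccTGATTCAcatattcagcag
NEDD4 at chr15:55917267-55917296, minus strand: tataggcactgTGATTCAcatagttaaatg
The motif lies 77 bases before the start in CA9, 214 in TM4SF19, 195 in ANKRD1 and 149 in NEDD4. For genes at least 2-fold changed with both knockdowns the promoter table held under 80% (74.1% of the higher and 70.6% of the lower genes), so no share is given for them.

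Separated genes could still lie far apart between the knockdowns. MMP1, an interstitial collagenase, had 3 and 2 reads in NC, 5 and 4 in siGYS1, and 328 and 257 in sip53, so its separation with siGYS1 rests on a difference of 1 to 3 reads. G0S2, an inhibitor of triglyceride lipase, had 9 and 9 reads in NC, 13 and 28 in siGYS1, and 263 and 249 in sip53. WFDC1, a secreted protease inhibitor family member, had 4 and 5 reads in NC, 5 and 5 in siGYS1, and 71 and 72 in sip53. Its separation with siGYS1 thus rests on library scaling. In FPKM its siGYS1 libraries overlapped NC, and with siGYS1 alone it did not pass the test against NC (edgeR adjusted p = 0.828). In these 3 genes the larger share of the pooled change came from sip53. Among lower genes, MPZL1, a cell surface glycoprotein, was at 210 and 203 CPM in NC, 195 and 194 in siGYS1, and 18.8 and 15.5 in sip53, and its siGYS1 libraries overlapped NC in FPKM. SLC17A8, a vesicular glutamate transporter, was at 25.5 and 22.6 CPM in NC, 9.68 and 8.98 in siGYS1, and 0.12 and 0.34 in sip53, the last from 2 and 6 reads. It was lower with both knockdowns and far lower with sip53. Being on one side of NC in all 4 libraries therefore covered genes at similar levels in both knockdowns, such as HRK and CA14. It also covered genes that 1 knockdown moved almost alone, such as MMP1 and MPZL1.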

How the data were processed

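The deposited table of 6 TOV21G libraries holds expected counts (read counts, about 17% not whole) and FPKM, per the file headers. The submitters' processing notes list STAR, HISAT2, TopHat, HTSeq, featureCounts, Salmon and other tools without roles and name a mouse build, while the identifiers are human. Which of them the authors used for these counts is not given in the sources read. Another 12 columns of per-sample values were not used.

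Counts were rounded and tested with edgeR 4.0.16 in R 4.3.3 (TMM, filterByExpr with a minimum count of 10, quasi-likelihood test, all 6 libraries in 1 fit with 3 residual degrees of freedom). The contrast was the mean of siGYS1 and sip53 minus NC, with Benjamini-Hochberg adjustment over 13235 genes at 0.05, and 3675 genes were filtered out. Separation was read from TMM-normalized CPM. The script was tested on simulated data. Deviations from the group means of same-numbered libraries correlated at 0.59 (NC and siGYS1), 0.12 (NC and sip53) and 0.27 (siGYS1 and sip53) over 11187 genes. The labels do not say what a number marks, and these values do not establish a pairing. A fit with the number as a block was an alternative. DESeq2 1.42.0 and limma 3.58.1 (pseudocount 1 on FPKM) were alternatives.

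Members and gene lists were chosen with earlier results of these data known. Named genes were GYS1, the 14 largest each way by the smaller of both changes (protein-coding, mean FPKM of at least 1), up to 3 separated members per list (if none, the member of lowest p), and the 4 separated genes each way that differ most between the knockdowns. Genes of the 1-group fit were added after seeing their values. A few genes taken by this rule are left unreported. With 17425000 to 18097337 reads per library, 1 read is 0.0537 to 0.0576 CPM, and low genes are given as reads. Gene models were GENCODE 29, which held 16830 of 16910 genes.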

Additional observations from a re-analysis of the deposited data

Results flagged for a closer look

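The difference between siGYS1 and sip53, tested by the edgeR contrast of both in which NC takes no part, marked 1730 of the 3729 separated genes. These were 48.7% of the higher and 44.1% of the lower ones, beside 43.4% of all tested genes. A difference between the knockdowns was thus about as frequent among all tested genes. The named genes with the largest such differences are given as siGYS1 minus sip53 on the log2 scale. The negative values, with sip53 above siGYS1, were -6.00 for MMP1 (edgeR adjusted p = 9.87e-07), -3.82 for WFDC1 (1.38e-05), -3.65 for CSF2 (2.11e-06) and -3.65 for G0S2 (4.11e-06). The positive values, with sip53 below siGYS1, were 5.30 for SLC17A8 (1.98e-06), 3.51 for MPZL1 (2.02e-07) and 3.78 for ENSG00000267179 (0.00665). The last has 13 and 13 reads in NC, 9 and 8 in siGYS1, and 1 and 0 in sip53, so its value depends on the prior count and is no bound. In each of these 7 genes both sip53 libraries lay on the same side of both siGYS1 libraries, which largely follows from choosing them by this difference.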

How the results depend on the processing

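The counts depended most on what was taken as error: with the knockdowns as 1 group in edgeR, 13 genes were higher and 8 lower, all separated, and 102 of 124 named genes lost their call, since the difference between the knockdowns then counts as spread. The DESeq2 Wald test gave 1247 separated lower genes, and limma on log2(FPKM + 1) gave 1479 higher and 1148 separated higher genes. Of the separated genes, 1451 of 1855 higher and 1725 of 1874 lower were also on one side of NC in FPKM. Leaving out each library in turn gave 1257 to 3058 higher and 1466 to 3096 lower genes, 1153 to 2501 separated higher and 1166 to 2271 separated lower genes, and 989 to 2066 that differ between the knockdowns. Among these, the lowest counts of separated genes came without NC replicate 2, and the lowest counts of differing genes without sip53 replicate 1. With the replicate block, 2097 separated genes were higher and 2141 lower, 2168 of them differing, and no named gene lost its call. The other counts under the remaining settings were within 1.5 times of those reported, and no named gene changed direction in any setting that tested it. With at least 1 CPM required in every library, only 93 of the 124 named genes were tested. Leaving out NC replicate 2 ended the call of 15 named genes. The cause was not tested. Depth limits genes such as AHRR, MMP1 and IFI44, and list counts of 1 or 2 often moved with a single library.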
